A study of Rattus norvegicus with 6 samples.

Results

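Isolated hepatocytes were compared with whole liver of the rat (Rattus norvegicus). All 6 libraries of the series entered the comparison, 3 of freshly isolated hepatocytes and 3 of whole liver, and were taken by their labels. In either preparation 1 library stands for healthy animals without treatment (control), 1 for animals whose portal vein was clamped for a time and then reopened (ischemia reperfusion, IR), and 1 for animals with IR plus 2 drugs (treated IR). The drugs were etanercept, a fusion protein that binds tumor necrosis factor, given 16 to 18 h ahead of IR at 9 mg/kg, and nitroglycerin, a nitric oxide donor, given as an infusion of 6 µg/kg/min that began before IR and went on through it. Each library held pooled RNA of 3 animals, taken 1 day after IR in the IR and treated IR groups. The hepatocytes came from other animals than the livers, so a control, IR or treated IR pair shares a condition and no animal. The labels used here give no strain, sex or age, and name no sham operation for the controls.

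Whole liver holds hepatocytes, which make most of its RNA, together with Kupffer cells (resident macrophages), sinusoidal endothelial cells, stellate cells (which store vitamin A and make matrix), bile duct cells and blood cells. Perfusion with collagenase digests the matrix and releases the hepatocytes, and the other cell types are largely left behind or washed away. Isolation is also known to be a stress that can start immediate early and inflammatory transcription in the hepatocytes themselves. Whole liver against isolated hepatocytes is therefore a common way to ask which transcripts of a liver come from cells other than hepatocytes. The count files name genes by Ensembl ID only. The RefSeq gene table used here (assembly GRCr8) lists no Ensembl IDs, so 0 of the 26689 IDs could be matched to it. No ID could therefore be tied to a gene symbol, a cell type or a sequence. The hepatocyte label was therefore not tested against marker genes, and genes are described below by how they behaved.

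More genes were called lower than higher in isolated hepatocytes, but most of the lower ones reached the level of the expression filter in liver alone. Of 9932 genes tested, 487 were lower in hepatocytes than in liver (4.9% of those tested) and 43 were higher (0.433%), by edgeR's quasi-likelihood test with an additive condition term, 3 libraries a side and a threshold of 0.05 on the adjusted p. In a bulk sample, fewer cells of a type and less RNA per cell cannot be told apart. Sizes are given for the called genes that reached the level of the expression filter (2.28 CPM before scaling) in both preparations. Here and below, a gene reached that level in a preparation if at least 1 of its libraries did. Each such lower gene had 10 or more hepatocyte reads. The 109 such lower genes made 1.19% of the 9170 genes at that level, and the 39 such higher genes 0.425%. Of 109 such lower genes, 26 were lower by 2-fold to 4-fold, 41 by 4-fold to 8-fold, 36 by 8-fold to 16-fold, 4 by 16-fold to 32-fold and 2 by at least 32-fold. Of 39 such higher genes, 21 were higher by 2-fold to 4-fold, 12 by 4-fold to 8-fold, 5 by 8-fold to 16-fold and 1 by 16-fold to 32-fold. The fold of most other lower genes rests on few hepatocyte reads. The fitted ratio was at least 2-fold lower for 834 genes (8.4%) and at least 2-fold higher for 98 (0.987%), whether or not the test called them. Scaled by library totals alone, the median log2 ratio of all genes was -0.27 in place of 0.03, and 24 genes were called higher and 501 lower.

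**Figure D1:**
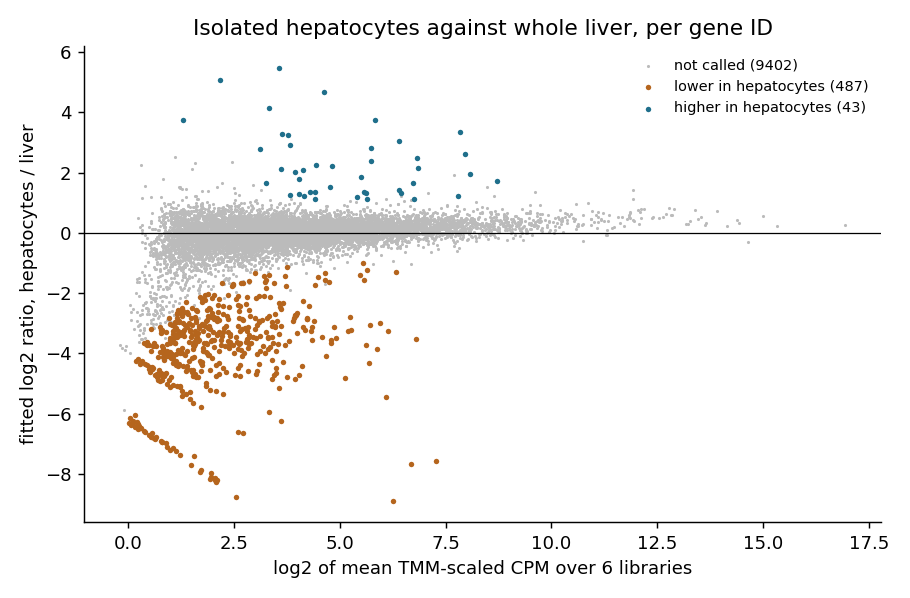
Fitted log2 ratio of isolated hepatocytes to whole liver (vertical axis) against the log2 of the mean TMM-scaled CPM (scaled read counts) over the 6 libraries (horizontal axis), 1 point per gene ID. Of 9932 IDs, the 487 called lower (brown) lie below and the 43 called higher (blue) above the line at 0. The slanting bands at the lower left hold genes with few or 0 hepatocyte reads, whose fitted ratio depends on the small count added by the fit.

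The lower genes were mostly rare transcripts of whole liver. In CPM scaled by TMM (read counts adjusted for library size and composition), the median lower gene stood at 4.80 in the control liver, 6.82 after IR and 8.01 after treated IR. Among hepatocytes the same median was 0.31 for control, 0.58 for IR and 0.46 for treated IR. That is no more than what 3 reads are worth in each of those libraries (0.931, 0.58007 and 1.39 CPM). Of the 487, 378 reached that filter level in liver alone, so they could enter the test only because of their liver level, and 109 reached it in both preparations. For the 9170 genes that reached it in both, 109 lower genes made 1.19% and 39 higher genes 0.425%. Of all 9932 genes, 735 reached that level in liver alone and 27 in hepatocytes alone.

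A part of the lower genes was not seen in hepatocytes at all. Of the 487, 45 had 0 reads in the 3 hepatocyte libraries together, against 32 to 212 reads in liver. Set against a limit of 3 reads over the 3 hepatocyte libraries, they were at least 6.81-fold to at least 45.1-fold lower, with a median bound of 11.9-fold. A further 136 had 1 to 3 hepatocyte reads and 306 had more. With the 45 genes set to their bounds, the median log2 ratio of the lower genes was -3.54 in place of -3.64. Before any filter, 11851 IDs had at least 10 reads in liver, and 385 of them had 0 in hepatocytes. The reverse was rare, since 10162 IDs had at least 10 reads in hepatocytes and 1 of them had 0 in liver. With at least 100 reads on the one side, the numbers were 11 of 7280 and 0 of 5832. Liver was sequenced more deeply, with 15165607 reads in genes over its 3 libraries against 11500830 in hepatocytes, so that 3 reads over a preparation equal 0.181 CPM in liver and 0.284 CPM in hepatocytes. These counts, floors and limits cover counting error only.

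By abundance, the genes that reached the filter level in both preparations were ranked by mean level and cut into 5 classes of 1834. From the least to the most abundant class 26, 40, 22, 19 and 2 genes were lower (1.42%, 2.18%, 1.2%, 1.04% and 0.109%), and 1, 5, 11, 10 and 12 were higher (0.0545%, 0.273%, 0.6%, 0.545% and 0.654%). The mean is taken over both preparations, so a gene's own difference moves its rank, and these counts are a description.

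Without any test, 1143 genes had all 3 hepatocyte libraries below all 3 liver libraries (11.5% of 9932), and 572 had all 3 above (5.76%). These counts depended on scaling. With library totals alone 1764 genes lay below (17.8%) and 89 above (0.896%). Among the 1987 genes of highest mean level, 37 lay below and 221 above with TMM scaling, but 115 below and 27 above with library totals, so the data give no direction for these separations.

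The lower genes held a small share of the reads of whole liver. Their summed share of reads in genes was 0.643%, 0.665% and 0.973% in the livers (control, IR, treated IR). It was 0.0569%, 0.0925% and 0.0621% in the hepatocytes, in that order. All 3 hepatocyte libraries were below all 3 livers, as the choice of genes requires. On the TMM scale the sum over the 487 genes fell from 5459 to 609 CPM between liver and hepatocytes in control, from 7052 to 954 CPM in IR and from 7866 to 783 CPM in treated IR. What was left in hepatocytes was thus 11.2%, 13.5% and 9.95% of the liver level. Gene by gene the left-over level was highest in the hepatocyte IR library for 42.1% of the 487, in control for 29.8% and in treated IR for 28.1%. Over all 9932 genes these shares were 38.9%, 26% and 35.1%. The 45 lower genes with 0 reads in all 3 hepatocyte libraries have no highest library and were counted for control. The control share of the 487 is therefore too high. Hepatocyte IR was also the deepest, with 5335184 reads in genes against 3448652 (control) and 2716994 (treated IR). The part of depth in these ranks was not tested. In liver the treated IR library was highest for 58.3% of the 487, IR for 29.8% and control for 11.9%, against 33.5%, 31.5% and 35% of all genes, with no replicate of any of these libraries.

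The 43 higher genes summed to 1323, 1272 and 1031 CPM in the livers (control, IR, treated IR). In hepatocytes they summed to 3505, 5443 and 4474 CPM, which is 2.65-fold, 4.28-fold and 4.34-fold the liver level. Within hepatocytes the control library was highest for 1 of the 43 (2.33%), IR for 25 (58.1%) and treated IR for 17 (39.5%), beside 26%, 38.9% and 35.1% of all genes. The higher genes were more abundant than the lower ones, with a median of 41.0, 50.7 and 42.7 CPM in hepatocytes (control, IR, treated IR) against 8.29, 12.3 and 13.6 CPM in liver. Of the 43, 39 reached the filter level in both preparations, so they were present in at least 1 whole liver library too. The other 4 reached it in hepatocytes alone.

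**Figure D2:**
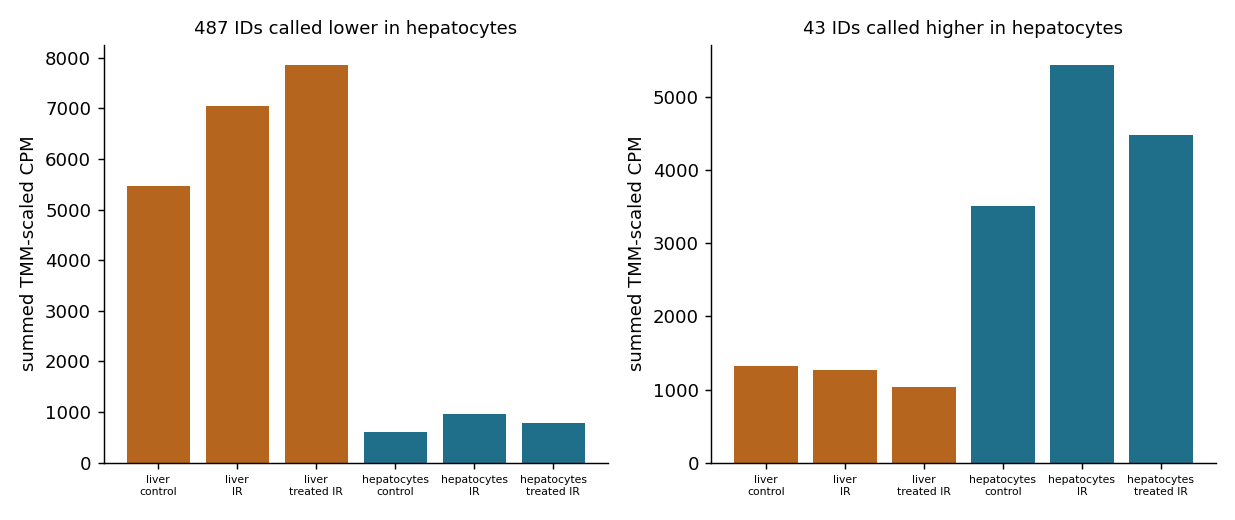
Summed TMM-scaled CPM of the 487 IDs called lower (left) and the 43 called higher (right) in each of the 6 libraries, 1 bar per library, liver in brown and hepatocytes in blue. The lower IDs sum to between 609 and 954 CPM in hepatocytes and to between 5459 and 7866 in liver, and the higher IDs to 3505 CPM or more in every hepatocyte library.

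With no symbols, 4 IDs serve as examples. They were chosen after their values were seen, from the IDs called also without each library in turn (301 of the 487 and 28 of the 43). Of these they had the highest mean CPM on their high side. With condition in the fit, leaving out 1 library acts much like leaving out both libraries of its condition. ENSRNOG00000049424 had 361, 280.1 and 281 CPM in the livers (control, IR, treated IR). Among hepatocytes the control library had 0 CPM, the IR library 3.29 and the treated IR library 1.39, from 0, 17 and 3 reads against 827, 1890 and 2104 in liver. It was thus a well expressed transcript of whole liver and all but absent from the hepatocyte libraries. The liver mean was 307 ± 46.5 CPM and the hepatocyte mean 1.56 ± 1.65 (SD across the 3 conditions, n = 3), a log2 ratio of -7.58 with SE 0.63 (adjusted p = 1.36e-05 by edgeR).

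ENSRNOG00000018735 had 166, 235 and 210 CPM in the livers and 9.00, 33.8 and 15.8 CPM in the hepatocytes, in the same order. A measurable remainder was left here, from 29, 175 and 34 hepatocyte reads, and it was largest in the IR library. The log2 ratio was -3.54 with SE 0.37 (adjusted p = 4.96e-05 by edgeR), from 204 ± 34.9 CPM in liver and 19.5 ± 12.8 in hepatocytes (SD across the 3 conditions, n = 3).

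ENSRNOG00000003977 had 151, 49.3 and 44.1 CPM in the livers (control, IR, treated IR) against 356, 453 and 444 CPM in the hepatocytes. The lowest hepatocyte library lay above the highest liver, and liver control lay apart from both livers after IR. The log2 ratio was 2.61 with SE 0.44 (adjusted p = 0.00202 by edgeR), from 81.6 ± 60.5 CPM in liver and 417 ± 53.6 in hepatocytes (SD across the 3 conditions, n = 3). By pair, its log2 ratio was 1.23 (control), 3.19 (IR) and 3.32 (treated IR).

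ENSRNOG00000014338 had 155, 121 and 65.9 CPM in the livers and 293, 597 and 393 CPM in the hepatocytes, in the same order, again with no overlap. The log2 ratio was 1.95 with SE 0.39 (adjusted p = 0.00685 by edgeR), from 114 ± 44.7 and 428 ± 155 CPM (SD across the 3 conditions, n = 3). In the pairs it was 0.92, 2.30 and 2.57. Both higher IDs thus differed least between the preparations in healthy animals, and whether that difference between conditions exceeds the spread of pools could not be tested with 1 library each.

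**Figure D3:**
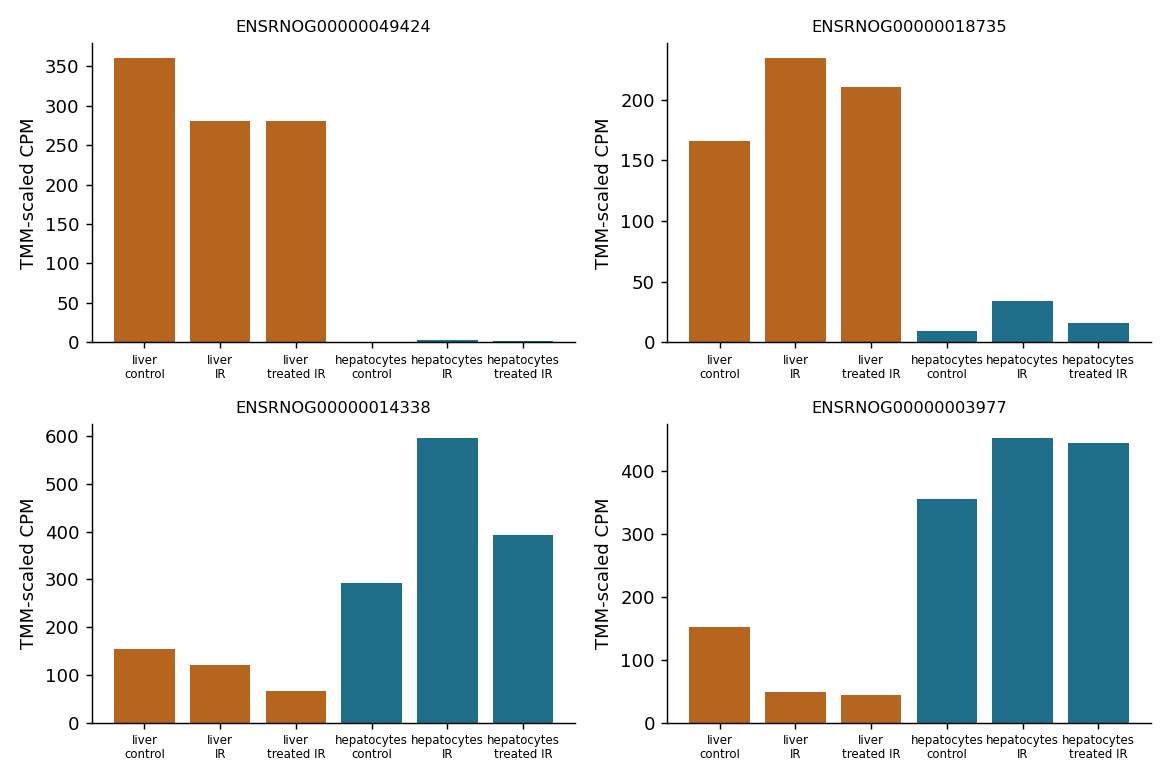
TMM-scaled CPM of the 4 example IDs in the 6 libraries, 1 bar per library, liver in brown and hepatocytes in blue. For each ID the 3 hepatocyte bars lie all below or all above the 3 liver bars.

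Because the calls used all 6 libraries, the comparison was repeated with both libraries of 1 condition set aside. Genes were called from the other 4 libraries (filter and edgeR fit on those alone, 1 residual degree of freedom) and then read in the pair not used. Without the controls 432 of 10121 genes were called lower (4.27%), without IR 445 of 8899 (5%) and without treated IR 379 of 9481 (4%), and 282 IDs were in all 3 lists. Many of them entered through their liver level alone, so the unused pair is read for those that reached the filter level in both preparations. In the control pair 119 of 123 such genes were lower (96.7%, against 47.6% of the 9373 genes at that level), and 105 were at least 2-fold lower (85.4%, against 5.56%). In the treated IR pair 94 of 98 were lower (95.9%, against 48.2%) and 88 at least 2-fold (89.8%, against 10.4%). The median log2 ratio was -2.90 in the control pair and -2.92 in the treated IR pair. In the IR pair 82 of 120 were lower (68.3%, against 48.6%) and 54 at least 2-fold (45%, against 5.48%), with a median of -0.73. Lower levels in hepatocytes were thus found again in all 3 pairs, for a smaller part of the genes in the IR pair. Over all genes called lower, the summed hepatocyte level in the unused pair was 12.5% of that in liver for control, 12.2% for treated IR and 49.96% for IR. These sums include the genes that entered through their liver level alone and are a description.

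Genes called higher were mostly higher again in the unused pair for control and treated IR, and not for IR. Of 46 genes called higher without the controls (0.455%), 36 were higher in the control pair (78.3%, against 49.5% of all genes). Of the 46, 25 were at least 2-fold higher (54.3%, against 4.9%), and the median log2 ratio was 1.17. Of 40 called without the treated IR libraries (0.422%), 37 were higher in that pair (92.5%, against 49.5%). At least 2-fold higher were 33 (82.5%, against 6.37%), with a median of 1.70. Without the IR libraries more genes were called, 146 (1.64%), but 59 of them were higher in the IR pair (40.4%, against 49.4% of all genes). There 87 were lower, 54 of them at least 2-fold, where 9.26% of all genes were at least 2-fold lower. At least 2-fold higher were 36 (24.7%, against 4.53%), and the median was -0.47. Summed over the genes, the hepatocyte level in the unused pair was 1.14-fold the liver level for control (3283 against 2884 CPM), 0.393-fold for IR and 4.68-fold for treated IR. The sum for control thus hardly differed although most of the genes were higher. In the IR pair 1 of the 146 genes held 28.6% of the summed liver level. In all, 27 IDs were in the 3 lists of higher genes. These counts and sums take all genes called higher. Of those at the filter level in both preparations, 31 of 40 were higher again in the control pair (77.5%, against 52.3% of genes at that level). In the treated IR pair it was 30 of 33 (90.9%, against 51.8%), and in the IR pair 51 of 135 (37.8%, against 51.4%).

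**Figure D4:**
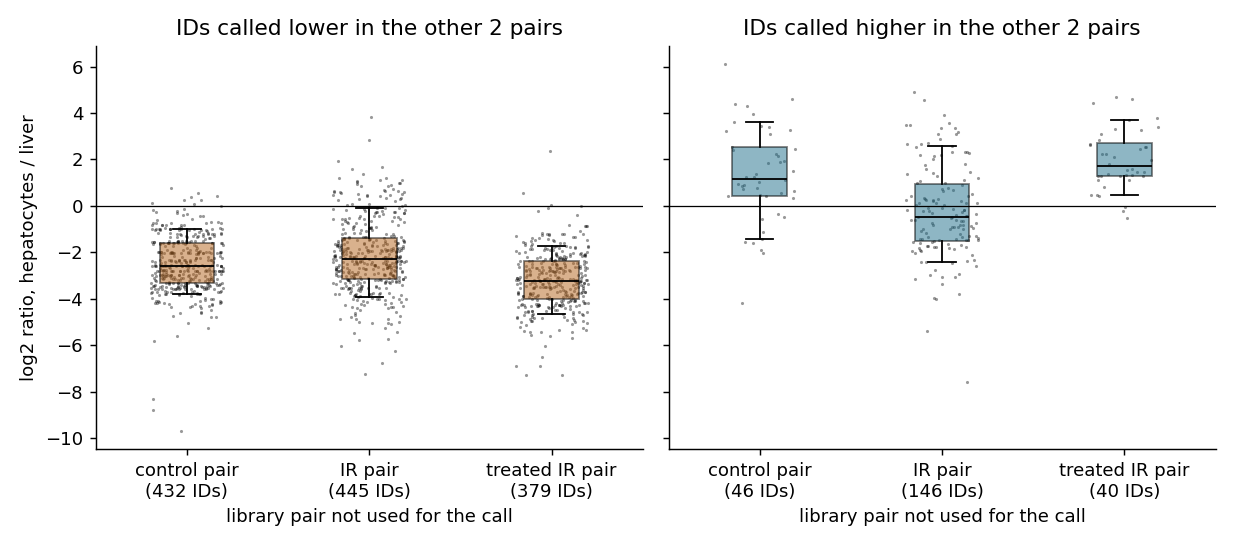
Log2 ratio of hepatocytes to liver in the pair of libraries not used for the call (vertical axis), for IDs called lower (left) or higher (right) from the other 4 libraries. Boxes give the median and quartiles, whiskers the 10th and 90th percentiles, and each dot is 1 ID. Every ID called is shown, also those that passed the filter through 1 preparation alone. Of the 6 medians, that of the 146 IDs read in the IR pair, at -0.47, is opposite to the call.

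Over these 146 genes the median was lower in hepatocyte IR than in the other hepatocyte libraries, and lower in the control liver than in the livers after IR. Their median level was 14.0, 27.5 and 24.1 CPM in the livers (control, IR, treated IR). The hepatocyte libraries had medians of 55.9, 28.1 and 70.3 CPM in that order. The hepatocyte IR library was the lowest of the 3 hepatocyte libraries for 111 of the 146. Liver IR was the highest of the 3 livers for 90 and the control liver the lowest for 98. For the 87 genes that were lower in the IR pair, hepatocyte IR was the lowest hepatocyte library for each of the 87. The call itself used the other hepatocyte libraries and favours genes that are high there. The 87 were also picked for a hepatocyte IR level below that of liver IR, so their rank follows largely from the choice. These medians and ranks are a description. Of the 146 genes, 40 were among the 43 called from all 6 libraries.

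**Figure D5:**
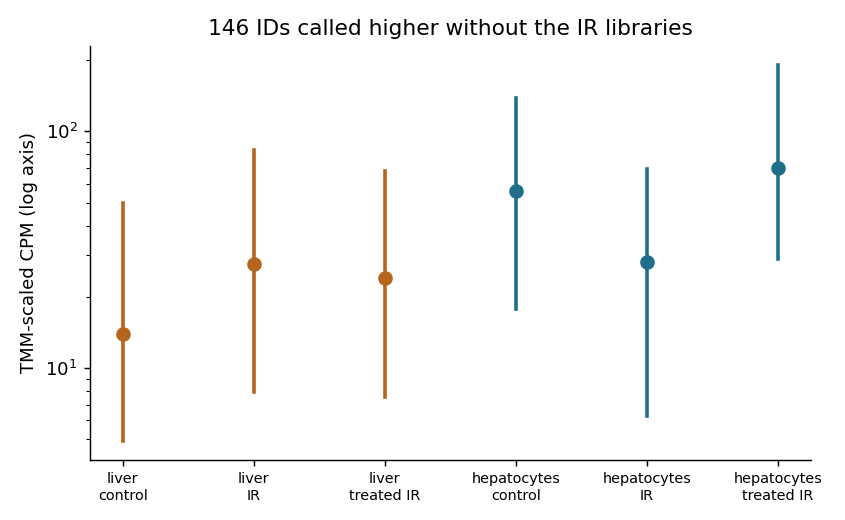
TMM-scaled CPM (log axis) of the 146 IDs called higher in hepatocytes without the IR libraries, in each of the 6 libraries. Points are medians over IDs and lines run from the lower to the upper quartile. The median in hepatocyte IR, 28.1 CPM, lies near that of liver IR, 27.5, while those of hepatocyte control and treated IR are at 55.9 and 70.3.

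Over all genes, the ratios of the IR pair were less like those of the other pairs. Across 9932 genes the log2 ratios of hepatocytes to liver in the control and treated IR pairs, which share no library, had a Pearson r of 0.592 and a Spearman rho of 0.353. The control and IR pairs had r = 0.369 and rho = 0.021, and the IR and treated IR pairs r = 0.442 and rho = 0.111. These are correlations across genes, which are not independent, and the points share library depth. Within preparations the hepatocyte libraries were less alike than the livers. The SD of a gene's log2 CPM over the 3 conditions had a median of 0.427 in hepatocytes and 0.236 in liver. For the 487 lower genes these medians were 0.523 and 0.416, and for the 43 higher genes 0.467 and 0.604. Summed depth was lower in hepatocytes, and its part in these SDs was not tested. Without liver IR 160 genes were called higher and without hepatocyte IR 154, in place of 43, and of the 43 themselves 41 were called in each case. The number of lower genes was 504 and 598. With condition in the fit, a library left alone in its condition adds almost nothing to the estimate for preparation. These 2 fits are therefore much like leaving out both IR libraries, which gave 157 higher genes, and are not separate checks.

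Depth per library ran from 1945331 reads in genes (control liver) to 7160610 (IR liver). The 100 most abundant IDs took 56.2% to 65.3% of reads in liver and 62.0% to 64.7% in hepatocytes. The means were 59.3 ± 5.17% and 62.9 ± 1.56% (SD across the 3 conditions, n = 3). An exact two-sided permutation of libraries gave p = 0.4, where 0.1 is the smallest that 3 against 3 allows. That permutation ignores the pairing by condition. The first 50% of reads lay in 56, 24 and 58 IDs in the livers (control, IR, treated IR), and in 36, 37 and 33 IDs in the hepatocytes. Liver IR was thus the library whose reads were spread over the fewest IDs. It also had the largest share of alignments that were not unique, 60.1% against 41.1% to 46.3% in the other libraries, and the part of either value in the results on the IR pair was not tested.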

How the data were processed

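The members of the comparison and the lists were chosen with earlier results of these data known. Poly(A)-selected RNA of pooled animals was read on an Ion Torrent Proton, per the labels. The authors deposited a file of raw counts for each library, with 1 line per Ensembl ID. The submitters' processing notes name TopHat2 2.0.13 and HTSeq 0.6.1. The build, the annotation and the use of strand in counting are not stated in the material used here, so genes that overlap, lie antisense or have near copies could be miscounted. Lines that name no gene were left out (no gene: 6.23% to 8.34% of uniquely aligned reads, ambiguous: 0.358% to 0.798%).

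Groups came from sample titles. Genes were filtered with filterByExpr (minimum count 10, by condition), scaled by TMM and tested in edgeR 4.0.16 (R 4.3.3) with preparation and condition as additive terms, 2 residual degrees of freedom and Benjamini-Hochberg adjustment. The labels do not say that pools of a preparation are replicates, so p-values measure the spread between these 6 pools beyond an additive condition effect. The interaction of preparation and condition could not be fitted. Log2 ratios of single pairs used a prior count of 2 and TMM factors over all 6 libraries. The SE of a fitted log2 ratio is approximate. It is the size of that ratio divided by the square root of the F statistic of edgeR's test. Nothing was computed per gene length. The script was checked on simulated data.

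Alternatives were DESeq2 size factors, library totals, no filter, a minimum count of 50, DESeq2 1.42.0, limma-voom (limma 3.58.1), no condition term and leaving out each library. Leaving out both libraries of a condition and a filter by preparation were added after seeing the data. The rule for named genes admits genes with a symbol only and named none, and the gene lists and the reading of filtered marker genes were not run for that reason.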

Additional observations from a re-analysis of the deposited data

Results flagged for a closer look

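In liver IR 60.1% of alignments were not unique, a quantity that no comparison used, against 46.3% in liver control, 41.1% in liver treated IR and 43.7% to 46.1% in hepatocytes. A read with several placements enters this share once for each of them.

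Of the 146 genes called higher in hepatocytes from the control and treated IR pairs, 87 went the opposite way in the IR pair. The difference between conditions was not tested, since each pair is 1 library a side, and whether it comes from the untreated IR condition or from these 2 pools cannot be told apart.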

How the results depend on the processing

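The number of lower genes was within 1.5 times of 487 under all 17 alternatives except a minimum count of 50, which tested 5902 genes and called 130. The number of higher genes was 28 with that minimum and 24 with library totals alone, both subsets of the 43. Leaving out 1 library gave 382 to 598 lower and 41 to 160 higher genes. With condition in the fit, each of these is much like leaving out both libraries of that condition. Leaving out both IR libraries gave 157 higher genes. The cause of the rise without IR was not tested. Of the 487 lower genes 123, and of the 43 higher genes 20, were called under every alternative set at the start, the minimum count of 50 included, which tests fewer genes. With no filter 648 and 64 genes were called. DESeq2 called 401 and 40, and limma-voom 522 and 47. The 4 example IDs were called in the same direction under all 17 alternatives, with log2 ratios of -9.11 to -6.83, -4.01 to -3.24, 1.60 to 2.44 and 2.19 to 3.26 for ENSRNOG00000049424, ENSRNOG00000018735, ENSRNOG00000014338 and ENSRNOG00000003977. Depth limits the size of the fold for 181 of the lower genes, which had at most 3 hepatocyte reads. Condition is a term of the fit, so the libraries are paired by condition, and without that term 520 genes were lower and 35 higher. The labels give no replicate numbers.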
